A study of Mus musculus with 12 samples.

Results

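The genes described here are 10 markers of heart macrophages, taken by symbol from the 19405 genes listed in at least 1 of the deposited tables. Cd163, Mrc1, Folr2, Lyve1 and F13a1 mark resident macrophages, and Lgals3, Trem2, Gpnmb, Ms4a7 and Lyz2 mark macrophages of injured tissue. All 10 were listed in both tables. Total RNA of mouse heart was sequenced in 12 libraries, in 2 experiments of 6 libraries with 4 groups of 3. In the first experiment, hearts labelled HDAC3 KO were set against WT hearts (WT_hM, after the name the labels give that experiment). In the second, NS-DADm hearts were set against WT hearts of their own (WT_NS). HDAC3 is a histone deacetylase that is active only when bound to the deacetylase-activating domain of nuclear corepressors such as NCOR1, and NS-DADm stands for mutations in such domains, which leave HDAC3 protein in place without enzyme activity. The series asks, by its title, about functions of HDAC3 in the adult heart that do not need the enzyme. The labels name no Cre driver, strain, age, sex or number of animals for any group, so it is not given in which heart cells Hdac3 was deleted. They call the libraries biological replicates without tying them to animals, so each p-value reflects how far these libraries spread, and that spread may be technical.

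The healthy heart holds macrophages that settle before birth and renew themselves locally. They clear cell debris, take up haemoglobin and sugar-coated proteins through scavenger receptors, and are marked by CD163, MRC1, FOLR2, LYVE1 and the clotting factor subunit F13A1. After injury, blood monocytes enter the heart and turn into macrophages that take up dying cells and lipid. These cells carry galectin 3 (Lgals3), the lipid receptor TREM2, the lysosomal membrane protein GPNMB, the membrane protein MS4A7 and much lysozyme (Lyz2). RNA of heart tissue was sequenced with its cell types mixed, so more cells of a type and more RNA per cell cannot be told apart. The labels do not state which parts of the heart were taken.

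All 10 markers were called higher in KO hearts than in their WT, against 38.2% of all genes tested, with Gpnmb tested only through its KO libraries. Of the 5 injury markers 4 rose further than any resident marker, and Gpnmb did not: Lgals3 was 48.3-fold, Ms4a7 17.5-fold, Trem2 9.48-fold and Lyz2 5.87-fold higher, against 4.47-fold for the resident marker that rose most, Mrc1. In NS-DADm hearts no injury marker passed the test. Folr2 was the 1 member called there, 1.63-fold higher, where 1.26% of all genes were called higher, and this call was lost when any 1 of 4 libraries was left out. The effect of KO was larger than that of NS-DADm for 8 of the 10 members, with Cd163 and Lyve1 the exceptions. Gpnmb was again counted only through KO. Over all genes tested, the KO effect minus the NS-DADm effect was called positive for 28.2%. KO and WT_hM hearts also differed in Y-linked RNA, and NS-DADm and WT_NS hearts did not. Sex and genotype therefore cannot be told apart in the KO calls or in this difference.

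Promoter windows are printed for the members with the largest differences between the mutants: Lgals3, Ms4a7 and Trem2 among the injury markers, and Mrc1 among the resident ones. They run from 250 bases before to 50 after a start site, are taken from RefSeq (GRCm38.p6), and read 5′ to 3′ on the strand of the gene. Capitals mark matches to the 4 motifs searched. The Lgals3 window is chr14:47373610-47373909 on the plus strand, the Ms4a7 window chr19:11334646-11334945 on the minus strand, the Trem2 window chr17:48346151-48346450 on the plus strand and the Mrc1 window chr2:14229164-14229463 on the plus strand.
Lgals3: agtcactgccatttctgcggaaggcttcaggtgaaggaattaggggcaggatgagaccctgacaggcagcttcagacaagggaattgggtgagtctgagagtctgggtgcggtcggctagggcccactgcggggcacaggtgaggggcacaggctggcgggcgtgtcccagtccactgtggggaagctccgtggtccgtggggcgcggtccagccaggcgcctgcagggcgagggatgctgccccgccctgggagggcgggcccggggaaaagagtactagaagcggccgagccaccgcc
Ms4a7: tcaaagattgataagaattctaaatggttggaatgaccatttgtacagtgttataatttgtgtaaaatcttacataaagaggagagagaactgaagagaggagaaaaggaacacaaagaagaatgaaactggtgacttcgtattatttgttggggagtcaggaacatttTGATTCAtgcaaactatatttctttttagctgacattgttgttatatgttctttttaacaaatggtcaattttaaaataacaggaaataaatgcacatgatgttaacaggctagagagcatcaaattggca
Trem2: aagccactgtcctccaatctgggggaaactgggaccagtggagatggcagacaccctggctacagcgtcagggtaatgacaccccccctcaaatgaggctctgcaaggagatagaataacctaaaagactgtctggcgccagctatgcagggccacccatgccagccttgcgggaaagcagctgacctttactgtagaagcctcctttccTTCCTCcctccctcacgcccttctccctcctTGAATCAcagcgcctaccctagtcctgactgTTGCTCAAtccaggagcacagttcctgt
Mrc1: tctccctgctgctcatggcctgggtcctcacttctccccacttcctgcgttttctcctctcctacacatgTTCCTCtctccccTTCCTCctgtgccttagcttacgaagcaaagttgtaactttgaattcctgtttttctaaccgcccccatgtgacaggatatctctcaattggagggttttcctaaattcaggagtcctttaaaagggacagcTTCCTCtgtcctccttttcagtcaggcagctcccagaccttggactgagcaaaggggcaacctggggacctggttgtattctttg

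The motifs were searched on both strands. They were GAGGAA (a core of sites for PU.1, the master transcription factor of macrophages), CACGTG (an E-box bound by MITF and TFE factors), TGANTCA (AP-1) and TTGCNNAA (C/EBP). Of the 10 members 9 had an entry, with 12 windows in all, and Lyve1 had none. Some members had more than 1 window, so counts of members and shares of windows are unlike measures. The PU.1 core was found for 4 of the 9 members, Mrc1, F13a1, Trem2 and Ms4a7, and in 28.3% of the 32851 promoter windows searched. Windows on chromosome 18, where no member lies, were left out, so all windows here means all those searched. Mrc1 held 3 copies in its window, each as TTCCTC, which is the same motif on the other strand. The AP-1 motif was found for 4 members, Folr2, Trem2, Gpnmb and Ms4a7, and in 7.81% of all windows. The C/EBP motif was found for Trem2 and in 10.8% of all windows. The E-box was found for 0 members and in 7.15% of all windows. The printed Lgals3 window held none of the 4 motifs. In the Trem2 window the 3 matches do not overlap, and stand at 40 bases before, 9 bases before and 22 bases after the start site. For Ms4a7 the AP-1 match lies in the printed window, and the PU.1 core in a second window upstream, chr19:11336097-11336396. That second window spans the 5′ end of the annotated gene, at 11336146, and the printed window lies inside the gene. These matches describe letters in a window and do not show binding.

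Both experiments were read as FPKM (fragments scaled to gene length and to library size), as the authors deposited them. FPKM corrects for gene length, so levels of different genes may be compared within a library. The steps between low FPKM values gave an estimated depth of 8.3 to 10 M (mega) fragments per library in the KO experiment and 10.4 to 13 M in the NS-DADm experiment. The Hdac3 transcript was at 27.8, 29.5 and 27.1 FPKM in WT_hM and at 8.51, 7.31 and 7.88 FPKM in KO, a 3.56-fold fall (limma adjusted p = 2.37e-09). In NS-DADm hearts, whose mutations spare the Hdac3 gene, it stood at 29.0 to 30.6 FPKM against 28.2 to 32.1 FPKM in WT_NS. The KO libraries also differed from their WT in Y-linked RNA. Ddx3y was listed at 0 in all 3 WT_hM libraries and at 21.4, 21.5 and 22.1 FPKM in KO, so the sex of the animals and the genotype cannot be told apart in that experiment. In the other experiment Ddx3y was at most 0.06 FPKM in every library. Heart muscle genes were abundant, with Tnni3 (cardiac troponin I) at 7732 FPKM or more and Myl2 (a ventricular myosin light chain) at 22060 FPKM or more in WT_hM. Replicates correlated across genes on the log2(FPKM + 1) scale with a Pearson r of 0.9963 to 0.9972 within the groups of the KO experiment and 0.9880 to 0.9941 in the NS-DADm experiment.

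The first comparison asked how the members changed when HDAC3 was lost. Tests used limma on log2(FPKM + 1), over the 11810 genes that reached 1 FPKM in 3 libraries of the experiment, with a call at an adjusted p under 0.05. Of all genes tested 38.2% were called higher in KO and 27.6% lower. The 10 members all passed the filter and were all called higher. Gpnmb passed only through its KO libraries, which fixes its direction. Every KO library was above every WT library for each of the 10 members, which held for 40.2% of all genes tested. The members' calls are read by size for that reason: 8 of the 10 means were more than 2-fold higher in KO, a size reached by 10.1% of all genes.

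Among the resident markers, Mrc1, the mannose receptor that clears sugar-coated proteins, was at 5.75, 5.77 and 5.61 FPKM in WT_hM and at 25.4, 26.1 and 25.2 FPKM in KO. The groups lay far apart and each was tight, with a log2 fold change of 1.98 ± 0.05 (SE, n = 3 per group, limma adjusted p = 1.78e-10). F13a1, the catalytic subunit of clotting factor XIII, was at 12.1, 11.1 and 10.2 FPKM in WT_hM and at 36.0, 36.4 and 36.8 FPKM in KO, 3.26-fold higher (limma adjusted p = 2.41e-09). Folr2, the folate receptor beta, was at 13, 12.3 and 12.2 FPKM in WT_hM and at 37.8, 39.5 and 37.7 FPKM in KO, 3.07-fold higher (limma adjusted p = 6.59e-10). Of these 3 resident markers Mrc1 rose furthest, 4.47-fold, and for each of them all KO libraries lay above the WT libraries.

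The other resident markers rose less. Lyve1, a hyaluronan receptor, was at 7.69, 9.30 and 10.5 FPKM in WT_hM and at 14.6, 15.1 and 15.1 FPKM in KO. The WT libraries were spread more widely than the KO libraries and did not reach them, and the rise was 1.63-fold (log2 fold change 0.66 ± 0.09, SE, limma adjusted p = 6.85e-05). Lyve1 is also made by lymphatic endothelium. Of the 6 tested genes on a list of 8 lymphatic markers, Ccl21a, Pdpn and Mmrn1 were called higher in KO. Prox1, the defining transcription factor of lymphatic endothelium, which heart muscle also makes, fell from 12.3 to 13 FPKM in WT_hM to 6.0 to 6.51 FPKM in KO. The list summed to 98.7 to 101.6 FPKM in WT_hM and 136.1 to 143.4 FPKM in KO, and its part in the Lyve1 value was not tested. Cd163, the receptor for haemoglobin bound to haptoglobin, was at 3.58, 3.08 and 4.13 FPKM in WT_hM and at 5.98, 5.32 and 6.05 FPKM in KO, 1.61-fold higher (limma adjusted p = 0.000279). It was the member with the smallest fold in KO, although its groups did not overlap.

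Among the injury markers, Lgals3 changed most. Galectin 3 is a sugar-binding protein that macrophages secrete and that fibroblasts respond to. It was at 4.43, 3.14 and 3.16 FPKM in WT_hM and at 168.2, 181.4 and 168.4 FPKM in KO. The lowest KO library was far above the highest WT library, with a log2 fold change of 5.26 ± 0.09 (SE, n = 3 per group, limma adjusted p = 1.51e-11). By fold change Lgals3 ranked 4 among the 11810 genes tested.

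Ms4a7, a membrane protein of macrophages, was at 2.06, 2.18 and 2.04 FPKM in WT_hM and at 35.5, 37.1 and 37.6 FPKM in KO. It ranked 16 among all genes by fold change, and its log2 fold change was 3.61 ± 0.06 (SE, limma adjusted p = 6.40e-12). Trem2, a receptor for lipids and apoptotic cells that signals through the adaptor Tyrobp, was at 3.17, 2.03 and 2.10 FPKM in WT_hM and at 22.9, 24.0 and 22.4 FPKM in KO. WT replicate 1 was the highest of the WT libraries and still well under each KO library (log2 fold change 2.82 ± 0.11, SE, limma adjusted p = 3.58e-09).

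Lyz2, the lysozyme of macrophages and neutrophils, was the most abundant member in every library. It was at 126.7, 141.6 and 136.8 FPKM in WT_hM and at 787.6, 806.3 and 785.9 FPKM in KO, 5.87-fold higher (limma adjusted p = 7.22e-12). Its close copy Lyz1 moved with it, from 10.7 to 12.4 FPKM in WT_hM to 61.6 to 64.2 FPKM in KO. Reads may be split between these genes, so the level of each is uncertain. Gpnmb, a membrane glycoprotein of lysosomes, was the least abundant member, at 0.40, 0.43 and 0.70 FPKM in WT_hM and at 1.78, 1.93 and 1.54 FPKM in KO. It rested on an estimated 13 to 22 fragments per WT_hM library and 57 to 71 per KO library. The KO mean was 3.43-fold higher.

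**Figure D1:**
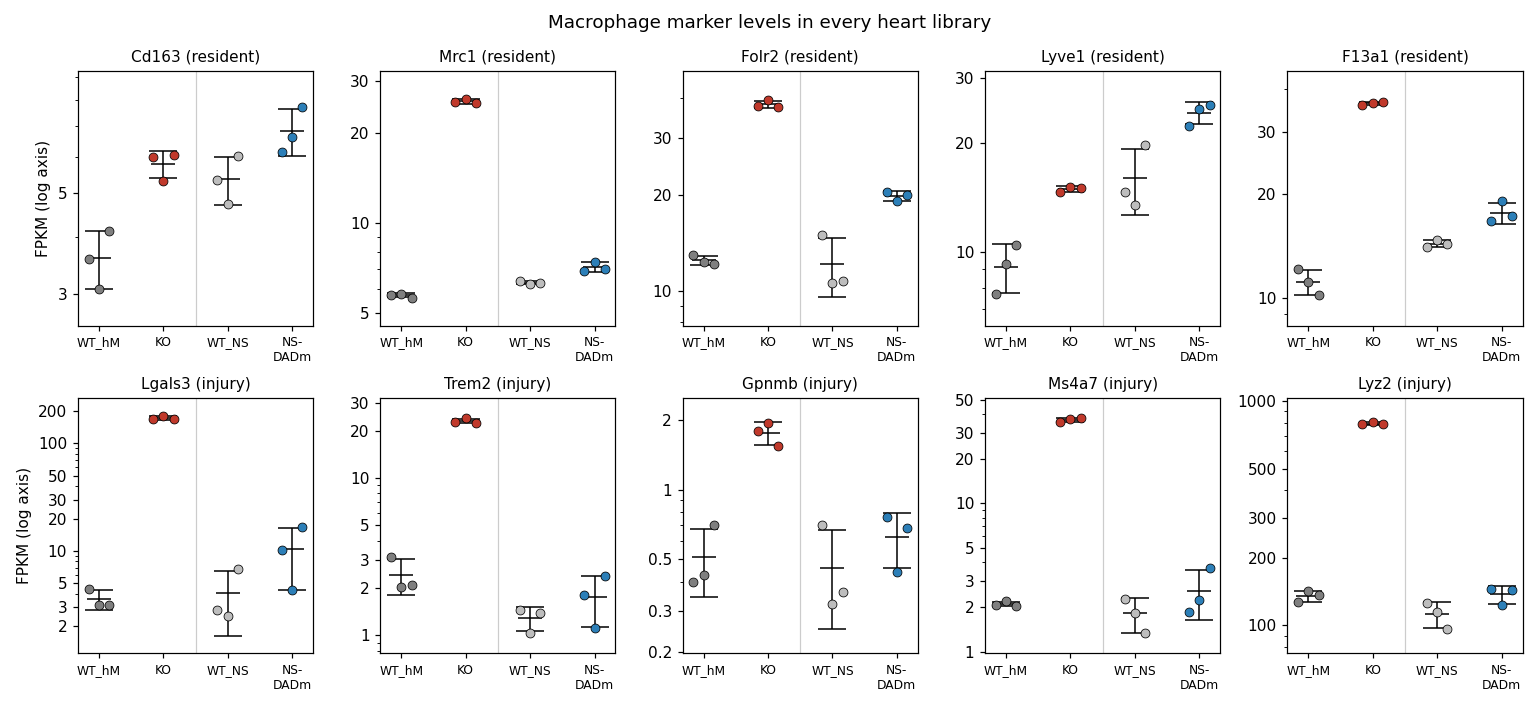
FPKM (log axis) of each of the 10 members in all 12 libraries, with 1 panel per gene; points are libraries and bars are the mean ± SD of 3 libraries. The KO points lie above the WT_hM points in every panel, while NS-DADm points overlap WT_NS points in the 5 injury panels and lie above them in the 5 resident panels.

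The order of the members by level changed in KO. In WT_hM, Lyz2 was first, followed by the 5 resident markers Folr2, F13a1, Lyve1, Mrc1 and Cd163, and then by Lgals3, Trem2, Ms4a7 and Gpnmb. Within that order the ranges of F13a1 and Lyve1 overlapped, as did those of each pair of neighbours from Cd163 through Lgals3 and Trem2 to Ms4a7. In KO, Lgals3 stood second, behind Lyz2 and far ahead of Folr2. Ms4a7 had moved up to the level of Folr2 and F13a1, its range overlapping that of F13a1, and Trem2 was above Lyve1 and Cd163. Resident markers made up 21.8% to 23.5% of the summed FPKM of the members in WT_hM and 10.4% to 10.6% in KO. Lgals3 alone went from 1.65% to 2.48% of that sum to 14.8% to 15.5%. Lyz2 remained the main part, with 70.8% to 74.2% in WT_hM and 68.7% to 69.4% in KO.

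The balance of the sets was measured per library as the mean log2(FPKM + 1) of the 5 injury markers minus that of the 5 resident markers, without a test. It was -0.40, -0.50 and -0.53 in WT_hM and 1.26, 1.32 and 1.23 in KO. By this measure, which weighs each gene alike, resident markers were the higher set in every WT_hM library and injury markers in every KO library. By summed FPKM, of which Lyz2 was the main part, injury markers were higher in both groups. Both sets rose, the resident mean from 3.13 ± 0.03 to 4.40 ± 0.01 and the injury mean from 2.65 ± 0.06 to 5.67 ± 0.04 (SD, n = 3).

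Each member was also set against genes that mark macrophages in general. The mean log2(FPKM + 1) of Adgre1, Csf1r, Fcgr1, Cd68 and Mertk rose from 2.40 ± 0.02 in WT_hM to 4.29 ± 0.03 in KO (SD, n = 3). Against this mean, 4 of the 5 injury markers were higher in every KO library than in any WT library. Lgals3 gained 3.37, Ms4a7 1.72, Trem2 0.94 and Lyz2 0.66 on the log2 scale. Gpnmb instead dropped by 1.02, and by 0.51 with a pseudocount of 0.1. Of the 5 resident markers, 4 lost ground in every KO library: Cd163 fell by 1.32, Lyve1 fell by 1.23, Folr2 fell by 0.34 and F13a1 fell by 0.26. Mrc1 was the exception, with 0.09 gained, and with a pseudocount of 0.1 it gained 0.0072 and its groups overlapped. The sizes of these changes, and the sign of that of Mrc1, depend on the reference genes. Mertk rose least of these, with a log2 fold change of 0.58. Adgre1, Csf1r, Fcgr1 and Cd68 rose by 2.02 to 2.39, each more than Mrc1, so the gain of Mrc1 rests on Mertk. A wider list of 20 pan-macrophage genes had a median log2 fold change of 2.29 in KO. Lyz2 stood at 2.55 and Mrc1 at 1.98 on that scale.

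**Figure D2:**
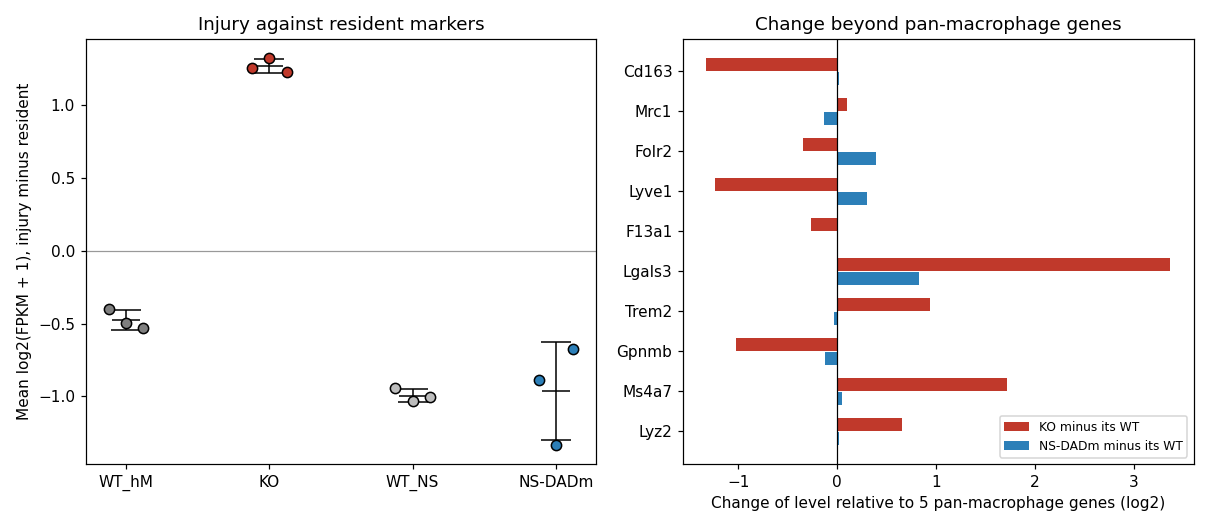
Left, the injury minus resident balance (mean log2(FPKM + 1)) in each library, with mean ± SD; right, the change of each member relative to the mean of 5 pan-macrophage genes (log2), for KO and NS-DADm. The KO libraries lie between 1.23 and 1.32, above the 0 line, and all other libraries lie below it; Lgals3 has the longest bar.

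The second comparison asked how the members changed when HDAC3 lost its enzyme activity and not its protein. Of 11705 genes tested, 1.26% were called higher and 1.43% lower in NS-DADm. Of the 10 members 9 passed the filter, since Gpnmb was under 1 FPKM in all 6 libraries, and 1 of the 9, Folr2, was called by limma. At an unadjusted p under 0.05 the fit would have called 4 of the 5 resident markers and 1 of the 4 tested injury markers higher, against 7.88% of all genes. All 9 fitted changes were above 0, as were those of 43.7% of all genes tested. The 5 resident markers each had every NS-DADm library above every WT_NS library, which held for 9.18% of all genes, and none of the 5 injury markers did. With values rescaled to a common sum, these counts were 4 and 1.

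Folr2 was at 15.0, 10.6 and 10.8 FPKM in WT_NS and at 20.4, 19.0 and 19.9 FPKM in NS-DADm. WT replicate 1 stood above the other WT libraries and below every NS-DADm library. The rise was 1.63-fold, with a log2 fold change of 0.68 ± 0.12 (SE, n = 3 per group, limma adjusted p = 0.0226). The call was lost without WT_NS replicate 2 (adjusted p = 0.0872) or 3 (0.0601), and without NS-DADm replicate 1 (0.0784) or 3 (0.0596), in limma fits whose adjusted p ranged from 0.00305 to 0.0872 over all alternatives. The authors' deposited table lists Folr2 at a fold of 1.64 with a q-value of 0.00197.

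Lyve1 was at 14.6, 13.5 and 19.7 FPKM in WT_NS and at 22.3, 24.7 and 25.4 FPKM in NS-DADm. WT replicate 3 came nearest to the mutant libraries, and the log2 fold change of 0.58 ± 0.13 (SE) just missed the threshold (limma adjusted p = 0.0519). Without WT_NS replicate 3 the limma adjusted p was 0.00652, and over all alternatives it ranged up to 0.159. The authors' deposited table lists Lyve1 at a fold of 1.53 with a q-value of 0.000224. Of the 7 lymphatic markers tested in NS-DADm limma called 0, with 2 at an unadjusted p under 0.05.

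F13a1 was at 14, 14.7 and 14.3 FPKM in WT_NS and at 16.7, 19.0 and 17.2 FPKM in NS-DADm (limma adjusted p = 0.0742). Cd163 was at 5.33, 4.72 and 6.01 FPKM in WT_NS and at 6.15, 6.64 and 7.70 FPKM in NS-DADm (limma adjusted p = 0.170). Mrc1 was at 6.39, 6.24 and 6.27 FPKM in WT_NS and at 6.92, 7.42 and 7.0 FPKM in NS-DADm (limma adjusted p = 0.308). The groups of these 3 resident markers were close to each other without overlap, and none of them was called. For Mrc1, which was 4.47-fold higher in KO, the 95% interval of the log2 fold change in NS-DADm ran from -0.01 to 0.32.

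The injury markers overlapped between the groups. Lgals3 was at 2.85, 2.48 and 6.86 FPKM in WT_NS and at 10.2, 4.37 and 16.5 FPKM in NS-DADm. Its spread was the widest of the members, and its log2 fold change of 1.11 ± 0.58 (SE) was not called (limma adjusted p = 0.399, and 0.0242 to 0.673 over all alternatives). The libraries with high Lgals3 were those with high levels of atrial genes. Myl7, the light chain of atrial myosin, was at 50.9, 9.77 and 795.5 FPKM in WT_NS and at 446.3, 84.3 and 804.5 FPKM in NS-DADm. The list of 8 atrial genes summed to 270.9 to 4697 FPKM in WT_NS and 575.0 to 6592 FPKM in NS-DADm, and Bmp10 was listed at 0 in the 3 libraries with the lowest Myl7. Among the 3 libraries with the most Myl7, Lgals3 was at 6.86 FPKM in the WT one and at 10.2 and 16.5 FPKM in the NS-DADm ones. With the Myl7 level in the fit, added after these values were seen, the log2 fold change of Lgals3 was 0.57 (limma adjusted p = 0.366) and that of Folr2 was still 0.68 (0.0578), no longer called. In the KO experiment Myl7 lay between 7.27 and 13.2 FPKM in all 6 libraries.

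**Figure D3:**
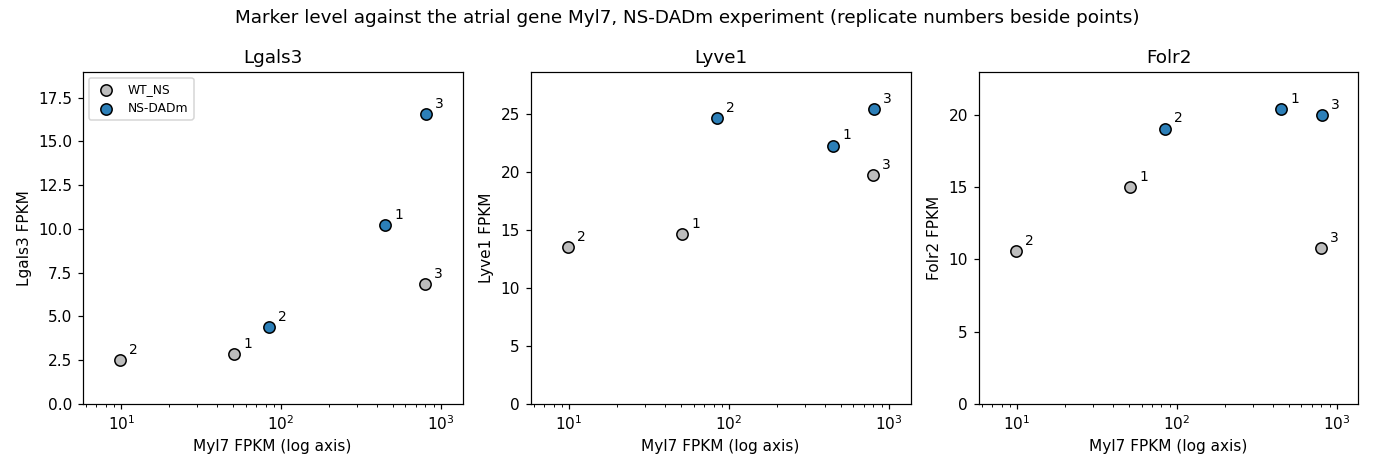
FPKM of Lgals3, Lyve1 and Folr2 against FPKM of the atrial gene Myl7 (log axis) in the 6 libraries of the NS-DADm experiment; each point is a library with its replicate number. Lgals3 is highest, at 16.5 FPKM, in the NS-DADm library with Myl7 at 804.5 FPKM, while Folr2 is at 10.8 FPKM in the WT_NS library with Myl7 at 795.5 FPKM.

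The remaining injury markers were low in the NS-DADm experiment, apart from Lyz2. Lyz2 was at 125.7, 114.8 and 96.2 FPKM in WT_NS and at 145.6, 122.8 and 144.3 FPKM in NS-DADm, with 1 NS-DADm library below the highest WT library (limma adjusted p = 0.175). Ms4a7 was at 2.28, 1.83 and 1.33 FPKM in WT_NS and at 1.85, 2.23 and 3.66 FPKM in NS-DADm (limma adjusted p = 0.409). Trem2 was at 1.45, 1.04 and 1.39 FPKM in WT_NS and at 1.80, 1.12 and 2.38 FPKM in NS-DADm (limma adjusted p = 0.478). In all of these, NS-DADm values lay on both sides of the highest WT value. Gpnmb, at 0.32 to 0.70 FPKM in WT_NS and 0.44 to 0.76 FPKM in NS-DADm, was not tested, and rested on an estimated 12 to 36 fragments per library.

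In WT_NS the order by level was Lyz2, Lyve1, F13a1, Folr2, Mrc1, Cd163, Lgals3, Ms4a7, Trem2 and Gpnmb, with overlapping ranges for Lyve1 and F13a1, F13a1 and Folr2, Cd163 and Lgals3, and Ms4a7 and Trem2. In NS-DADm, Folr2 stood above F13a1 and Lgals3 above Mrc1, but the range of Lgals3 covered those of Mrc1 and Cd163. The injury minus resident balance was -0.94, -1.03 and -1.01 in WT_NS and -0.89, -1.33 and -0.68 in NS-DADm. Its mean hardly moved, from -0.99 ± 0.04 to -0.96 ± 0.33 (SD, n = 3), while the NS-DADm libraries spread more widely around it. The mean of the 5 general macrophage genes rose from 2.42 ± 0.07 to 2.70 ± 0.02. Against it, Folr2 was the 1 member that was higher in every NS-DADm library than in any WT library, with a gain of 0.40.

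The third comparison set the effect of KO against that of NS-DADm, as the difference of the log2 fold changes over all 12 libraries. KO and WT_hM differed in Y-linked RNA, and NS-DADm and WT_NS did not. Sex and genotype therefore cannot be told apart in this difference either. This signed difference was called positive for 28.2% of the 11662 genes tested and negative for 17.7%. A negative difference also covers genes that fell further in KO than in NS-DADm. The difference was called positive for 8 of the 10 members, 5 injury and 3 resident. Of these, Gpnmb had its direction fixed by the filter, as it reached 1 FPKM only in KO libraries. Lgals3 differed most, by 4.15 on the log2 scale with a 95% interval of 2.74 to 5.55 (limma adjusted p = 0.000585). Mrc1 differed by 1.83, the most among the resident markers, with an interval of 1.67 to 2.00 (limma adjusted p = 6.05e-10). For Lyve1 the difference was 0.08, with an interval of -0.29 to 0.44 (limma adjusted p = 0.745), and for Cd163 it was 0.26, with an interval of -0.05 to 0.58 (0.161). Both intervals end below the difference of Mrc1, and neither shows that the mutants act alike on these genes.

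**Figure D4:**
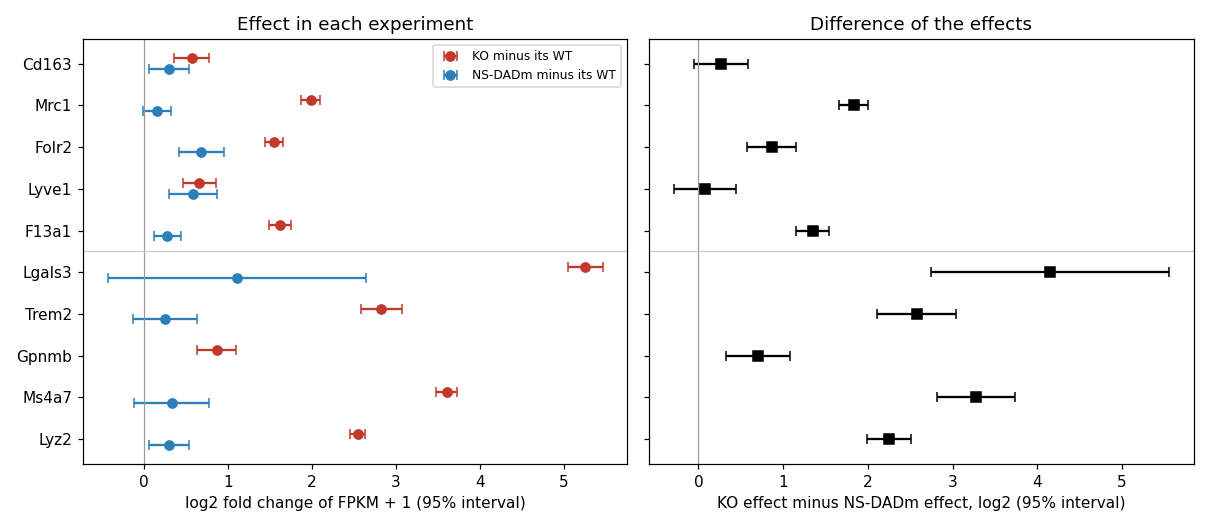
Left, log2 fold change of FPKM + 1 for each member in KO and in NS-DADm against its own WT; right, the KO effect minus the NS-DADm effect. Bars are 95% intervals from limma; Gpnmb has no NS-DADm point on the left, Lgals3 differs by 4.15 and the interval of Lyve1, -0.29 to 0.44, spans 0.

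Other genes of the same cells were described from lists of known markers. Each list is read beside all genes tested, of which 38.2% were called higher and 27.6% lower in KO. In NS-DADm these shares were 1.26% and 1.43%. In KO all 20 genes of a pan-macrophage list were called higher, with a median log2 fold change of 2.29 against 0.06 for all genes tested. Cx3cr1, the fractalkine receptor, rose 10-fold, Tyrobp, the signalling adaptor of TREM2, rose 6.91-fold, and Ctss, a lysosomal protease, rose 6.52-fold. In NS-DADm 8 of the 19 tested genes of this list were called higher and 0 lower, with a median of 0.42 against -0.02. Ctss rose there from 12.9 to 13.6 FPKM in WT_NS to 26.2 to 32.1 FPKM, 2.28-fold. Mpeg1, a pore-forming protein of phagocytes, rose 1.97-fold, and Cd14, a receptor for bacterial lipid, rose 1.66-fold.

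Of a further 20 resident macrophage genes 17 were tested in KO, of which 14 were called higher and 1, Gas6, lower. By log2 fold change of FPKM + 1 the first were Vsig4, a complement receptor, with 7.25-fold, Igf1, a growth factor, with 4.42-fold and Maf, a transcription factor, with 3.81-fold. In NS-DADm 2 of 16 were called, both higher, among them Fcna, a lectin of the complement system, by 3.57-fold. Of these 16 genes, 1 was tested only through NS-DADm libraries, which fixes its direction. Of a further 20 injury or lipid-associated genes 18 were tested in KO, with 15 called higher and 2, Lpl and Fabp4, lower. The median log2 fold change was 1.16 for the resident list and 0.89 for the injury list, against 0.06 for all genes, with 3 genes of each list tested only through KO libraries. Spp1, osteopontin, was at 0.43 to 0.62 FPKM in WT_hM and at 23.3 to 26.3 FPKM in KO and so was tested only through its KO libraries. Hmox1, heme oxygenase, rose 6.46-fold and Ctsk, a protease, 6.78-fold. In NS-DADm 2 of 16 were called higher, Ctsl, a protease, by 1.4-fold and Hmox1 by 1.42-fold.

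Genes that act with the members moved as follows. Of the 14 tested genes of CSF1R and TREM2 signalling 12 were called higher in KO, 1 of them (Csf2rb) tested only through KO libraries, and 2, the transcription factors Mitf and Tfeb, lower. Csf1r, the receptor for the macrophage growth factor, rose 4.32-fold in KO and 1.34-fold in NS-DADm, where it was the 1 call among 12 genes tested. Of the 10 tested genes for handling haemoglobin, mannose and folate 7 rose in KO, 1 of them (Hp) tested only through KO libraries, and 2 fell, the iron exporter Slc40a1 and the lipid receptor Cd36. In NS-DADm 3 of 10 rose, the scavenger receptor Msr1 by 1.80-fold, Hmox1 by 1.42-fold and the ferritin chain Ftl1 by 1.27-fold. Haemoglobin is the cargo of CD163, and 5 of 5 tested genes of the erythroid list fell in KO, with a sum of 7976 to 9302 FPKM in WT_hM and 2693 to 2830 FPKM in KO.

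Within the families of Lgals3 and Ms4a7 the other genes changed by smaller folds. For comparison, 38.2% of all genes tested were called higher in KO and 27.6% lower. Of 5 other galectin genes tested in KO, counting the galectin ligand Lgals3bp, 4 rose and Lgals4 fell, from 48.1 to 50.8 FPKM to 13.4 to 14.4 FPKM. Lgals3bp rose 2.17-fold in KO and 1.68-fold in NS-DADm, and Lgals9 rose 1.57-fold in KO. All 7 tested genes of the MS4A family list were called higher in KO, 2 of them tested only through KO libraries. By log2 fold change of FPKM + 1 the first among them were Ms4a6c, 5.24-fold, Ms4a6d, 5.70-fold, and Ms4a6b, 4.65-fold. In NS-DADm limma called 0 of the 4 tested, with 1 at an unadjusted p under 0.05.

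**Figure D5:**
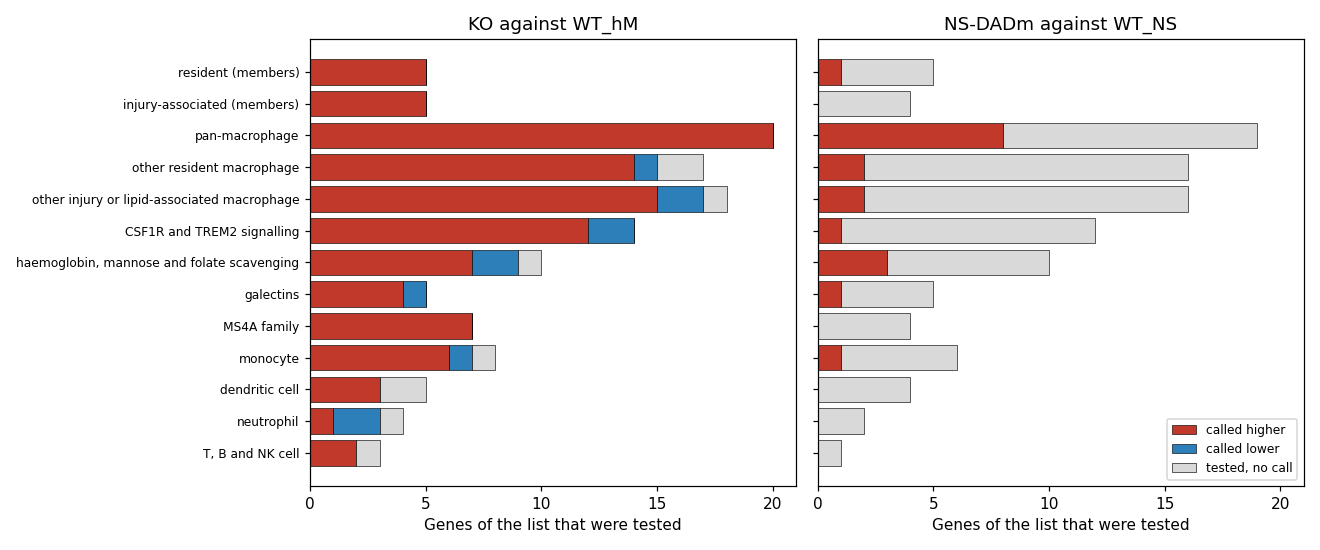
Number of tested genes in each list that were called higher, called lower or not called (limma adjusted p under 0.05), for KO and for NS-DADm. In KO all 20 pan-macrophage genes are called higher; in NS-DADm 8 of 19 are.

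Markers of other white blood cells were also measured, where 38.2% of all genes tested were called higher in KO and 27.6% lower. The list of T, B and NK cell genes summed to at most 8.41 FPKM in WT_hM and 12.6 FPKM in KO, with 2 of 3 tested genes, Nkg7 and Cd3g, called higher. The neutrophil list summed to at most 21.3 and 16.3 FPKM, with Ly6g listed at 0 in all 6 libraries. In KO the neutrophil genes S100a9 and Lcn2 fell and Csf3r rose. Of 8 monocyte genes tested in KO 6 rose and 1, Ly6c1, which endothelium also makes, fell, and the list summed to 310.0 to 320.7 FPKM in WT_hM and 245.5 to 261.5 FPKM in KO. Ccr2, the chemokine receptor of blood monocytes, was at 1.80, 1.94 and 2.55 FPKM in WT_hM and at 9.82, 9.96 and 11.8 FPKM in KO, 5.01-fold higher (limma adjusted p = 4.49e-08). In NS-DADm 1 of 6 was called, the immediate early gene Nr4a1, 2.66-fold higher. Of 5 dendritic cell genes 3 rose in KO, Irf8, Fscn1 and Ccl17, the last tested only through KO libraries, and the list summed to 22.7 to 25.1 FPKM in WT_hM and 47.1 to 49.2 FPKM in KO.

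Genes of other heart cells also changed in KO, in both directions, where 38.2% of all genes tested were called higher and 27.6% lower. The part of these cells in the values above was not tested. Of 10 cell cycle genes 9 were called higher, 6 of the 10 having been tested only through KO libraries, and the list summed to 10.7 to 12.7 FPKM in WT_hM and 35.7 to 38.5 FPKM in KO. Of 10 fibroblast genes 6 rose and 2 fell. Of 10 cardiomyocyte genes 6 fell and 1 rose, and their summed level was 65122 to 69207 FPKM in WT_hM and 43964 to 44597 FPKM in KO. Of 10 blood vessel endothelium genes 8 fell and 2 rose. The 5 tested atrial genes were all higher, led by Nppa, a stress hormone of heart muscle, with 15.9-fold. In NS-DADm limma called 0 of the tested genes on each of these lists, with 1 cell cycle, 2 fibroblast, 3 cardiomyocyte, 2 endothelial and 0 atrial genes at an unadjusted p under 0.05. Gpnmb is also made by melanocytes and osteoclasts. Of that list the melanocyte enzyme Dct fell in KO, to 0.35 to 0.49 FPKM, and rose 2.27-fold in NS-DADm, and the osteoclast enzyme Acp5 rose in KO, tested only through KO libraries.

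Likeness of pattern was measured over the 12 libraries as the mean absolute difference between a gene's deviations from its WT mean (log2) and those averaged over a set of members. Among 10880 other genes the closest to the injury markers were Asns, Uck2, Tyrobp, Star and Col8a1, at 0.10 to 0.19. Asparagine synthetase, Asns, was the closest, with log2 fold changes of 3.07 in KO and 0.53 in NS-DADm. Among the closest to the resident markers were Tlr8, Grn, Msr1 and Arpc1b, at 0.04 to 0.07. Tlr8, a sensor of RNA, was the closest of these, with log2 fold changes of 1.26 in KO and 0.42 in NS-DADm.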

How the data were processed

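Total RNA sequencing of mouse heart gave 12 libraries, 3 in each of 4 groups. Per the file headers, the values deposited by the authors are FPKM of each gene in each library, in 1 table per experiment, with their own signed fold changes (a score, as falls are negative) and q-values. Tools in the submitters' processing notes, listed without roles, are RSEM 1.2.12, DESeq2 1.4.5, Bowtie2 2.2.5 and HISAT2 2.0.4, with the build GRCm38.p6. The labels' protocols name SOAPnuke 1.5.2 for adapter removal and an average of 60 M (mega) reads. Whether counting used strand is not stated in these sources. In the NS-DADm table deposited by the authors, between 1654 and 2212 of the FPKM values per library were blank among the 17833 genes kept, and these were taken as 0. The 24 symbols turned into dates were left out. Another 3 per-sample columns could be matched to no sample and were left unused.

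Depth was estimated from the steps of low FPKM values, of which 60.5% to 79.3% lay within 0.15 of whole fragments. No counts were rebuilt, and no count test was run. Tests used limma 3.58.1 (R 4.3.3; trend and robust) on log2(FPKM + 1), with Benjamini-Hochberg adjustment over all genes tested. Fold changes from limma understate the change of low genes on this scale, and a fold given as such is the ratio of the group means in FPKM. Each mutant was tested in its own table, which the authors normalized separately. The difference of effects used 4 group means. The fits were checked on simulated data.

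The members and all gene lists were chosen with earlier results of these data known, so their counts are not independent support. Genes named from lists were the 3 called with the largest log2 fold change, or all where 5 or fewer were called; others were named after their values were seen, and 1 gene that the rule names is not reported here. Alternatives were another pseudocount, other filters and scalings, other variance settings, a replicate block and each library left out.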

Additional observations from a re-analysis of the deposited data

Results flagged for a closer look

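By a test of the difference itself, the KO effect minus the NS-DADm effect was called positive for 28.2% of all genes tested and negative for 17.7%. For 8 members the effects differed by this test. The differences, KO effect minus NS-DADm effect on the log2(FPKM + 1) scale with limma's adjusted p, were 4.15 for Lgals3 (0.000585), 3.28 for Ms4a7 (5.22e-08), 2.58 for Trem2 (5.92e-07) and 2.25 for Lyz2 (8.63e-09). Among the resident markers they were 1.83 for Mrc1 (6.05e-10), 1.35 for F13a1 (5.16e-08) and 0.87 for Folr2 (0.000139). For Gpnmb the difference was 0.71 (0.00463), and it was tested only through its KO libraries. Sex and genotype cannot be told apart in these differences, since only KO and WT_hM differed in Y-linked RNA. Groups of 3 libraries were too small to flag a single library.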

How the results depend on the processing

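In KO every member kept its call and direction under every alternative in which it was tested; Gpnmb fell out of the test without any 1 KO library, which left 9 to 10 members called. In NS-DADm, where 1 member was called, the count was 2 with median centring (Folr2 and Lyve1), 0 with no filter on low values, 0 with the Myl7 level in the fit (chosen after seeing the data) and 0 to 1 with 1 library left out. All called genes there numbered 315, against 164 with no filter, 198 with Myl7 and 84 to 248 with 1 library left out; the causes were not tested. With the replicate block there were 496 calls, 3 of them members (Folr2, Lyve1 and Lgals3). The labels do not say that equal replicate numbers pair the libraries. Same-numbered deviations correlated at 0.01, 0.38 and 0.44 in that experiment and -0.06 to 0.00 in the KO experiment. In the NS-DADm experiment libraries numbered 2 and 3 correlated best with their own number, and those numbered 1 did not. Pairing by number was therefore not settled there. The KO split of 4515 genes higher and 3260 lower became 3640 and 4150 with median centring, and 5558 and 2732 with values rescaled to a common sum. The gain of injury over resident markers in KO, 1.75, was 2.04 with a pseudocount of 0.1 and 1.83 rescaled to a common sum, and 1.72 to 1.78 with 1 library left out. In NS-DADm it was 0.03, and -0.11 to 0.21 with 1 library left out. The number of members above their WT relative to pan-macrophage genes was 1 to 3 there with 1 library left out; in KO it was 5, and 4 with a pseudocount of 0.1. Members under 1 FPKM, such as Gpnmb, are limited by depth.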
